A study of Mus musculus with 24 samples.

Results

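The 7 genes described here carry bile acids across the cell of the distal small intestine and report on that traffic to the liver: Slc10a2, Fabp6, Slc51a, Slc51b, Nr1h4, Nr0b2 and Fgf15. They were chosen by name, as 7 of the 39179 genes in the deposited tables, through the match of Ensembl identifiers to mouse symbols. Their reads were followed in all 24 mouse libraries, and all 7 passed the filter on low counts. The series asks how loss of the intestinal homeobox factor Cdx2 changes the gut, alone and together with a mutant Apc allele, and it holds 8 groups of 3 libraries. In the ileum, Cdx2-/-;Apc+/- mice were compared with untreated Apc+/- mice, so every ileum library carried the mutant Apc allele ApcD14. In the cecum, Cdx2-/-;Apc+/- mice, Cdx2-/- mice in 2 sets of libraries and untreated heterozygous Cdx2+/- mice were set against untreated wild-type (WT) mice. WT stomach, also untreated, is the last group. The Cdx2-/- and Cdx2-/-;Apc+/- animals carried floxed Cdx2 alleles (Cdx2f/f) and AhCreERT, a tamoxifen-dependent Cre driven by the Cyp1a1 (Ah) promoter, and were given tamoxifen and β-naphthoflavone. β-naphthoflavone acts through the aryl hydrocarbon receptor and was given to no control, so treatment and Cdx2 deletion cannot be told apart. The labels of the Apc+/- ileum disagree: replicates 1 and 3 have a genotype entry that names floxed Cdx2 and Cre as well, while their description says otherwise. RNA came from whole tissue and the age of the mice is not given in the sources used here. No label says whether the 3 replicates of a group come from different mice, and the p-values cover the variation among these libraries, which may be technical.

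Bile acids are made from cholesterol in the liver, conjugated, and secreted into the duodenum, and most are taken back in the terminal ileum. Slc10a2 (the apical sodium-dependent bile acid transporter ASBT) brings them into the enterocyte, Fabp6 (the ileal bile acid binding protein) carries them through the cytosol, and Slc51a and Slc51b (the 2 chains of the organic solute transporter OSTα-OSTβ) let them out into portal blood. Inside the cell they activate the nuclear receptor Nr1h4 (FXR), which works as a heterodimer with a retinoid X receptor and turns on Fabp6, Slc51a, Slc51b, Nr0b2 and Fgf15. Nr0b2 (SHP) is a repressor without a DNA-binding domain. Fgf15 is the hormone that travels to the liver and, through Fgfr4 and its coreceptor Klb, lowers bile acid synthesis by Cyp7a1.

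On GRCm38 with the GENCODE annotation, Slc10a2 (ENSMUSG00000023073) lies at chr8:5083219-5105351 on the minus strand and Fabp6 (ENSMUSG00000020405) at chr11:43596049-43601540 on the minus strand. Slc51a (ENSMUSG00000035699) lies at chr16:32474504-32487879 and Slc51b (ENSMUSG00000053862) at chr9:65412714-65422955, both on the minus strand. Nr1h4 (ENSMUSG00000047638) is at chr10:89454234-89533585 on the minus strand, Nr0b2 (ENSMUSG00000037583) at chr4:133553376-133556536 on the plus strand, and Fgf15 (ENSMUSG00000031073) at chr7:144896531-144900953 on the plus strand. Values are exonic reads summed over each gene. Slc51a overlaps Pcyt1a, Slc51b overlaps Rasl12, and Fgf15 overlaps the antisense gene Gm26793, each on the opposite strand, and the strand setting of the count is not given in the sources used here, so reads of each pair cannot be told apart.

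The promoters of 4 members are shown because Slc10a2, Slc51a and Slc51b moved together across the libraries while Fabp6 did not follow them in the WT cecum. RefSeq (GRCm38.p6) lists a promoter for 6 of the 7 members, and the 250 bases before the RefSeq start of each were read. These starts can differ from the GENCODE bounds given above. The windows of Slc10a2 and Slc51b reach into the GENCODE gene, and that of Nr1h4 (chr10:89506659-89506908) lies wholly inside it. Both strands were searched for 4 sets of letters, chosen after the promoters had been seen. AGGTCA and TGACCT with 1 base between them make the full inverted repeat (IR-1) that FXR and its partner bind, and GGTNA and TNACC with 1 base between them are a shorter form, which every full one contains. TTTATNG is a Cdx-type motif, and TTAAT and ATTAA with 1 base between them are an Hnf1-type motif. Capitals mark the matches, and each sequence reads 5′ to 3′ on the gene's own strand, the minus strand in all 4.
Slc10a2, chr8:5105288-5105537: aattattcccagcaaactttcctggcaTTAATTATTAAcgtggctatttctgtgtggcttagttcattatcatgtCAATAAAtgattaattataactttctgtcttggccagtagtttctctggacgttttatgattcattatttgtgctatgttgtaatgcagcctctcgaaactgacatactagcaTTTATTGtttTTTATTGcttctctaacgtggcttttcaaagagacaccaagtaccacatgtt
Fabp6, chr11:43601563-43601812: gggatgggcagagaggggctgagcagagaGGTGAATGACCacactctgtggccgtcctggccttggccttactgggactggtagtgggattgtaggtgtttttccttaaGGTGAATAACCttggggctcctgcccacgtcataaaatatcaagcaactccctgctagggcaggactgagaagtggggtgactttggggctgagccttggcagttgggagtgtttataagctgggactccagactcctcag
Slc51a, chr16:32487880-32488129: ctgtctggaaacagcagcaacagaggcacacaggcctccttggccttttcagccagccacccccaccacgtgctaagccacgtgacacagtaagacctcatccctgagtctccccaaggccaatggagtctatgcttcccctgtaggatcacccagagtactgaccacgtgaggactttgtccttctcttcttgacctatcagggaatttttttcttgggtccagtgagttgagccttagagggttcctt
Slc51b, chr9:65422774-65423023: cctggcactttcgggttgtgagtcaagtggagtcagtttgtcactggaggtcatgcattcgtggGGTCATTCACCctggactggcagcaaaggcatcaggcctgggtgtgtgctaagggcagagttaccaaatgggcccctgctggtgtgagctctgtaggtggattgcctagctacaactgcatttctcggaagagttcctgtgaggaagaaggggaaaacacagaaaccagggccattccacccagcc

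In these windows Slc10a2 held 3 Cdx-type matches, 62 to 56 and 52 to 46 bases before the start and, on the other strand, 175 to 169 bases before it, and 1 Hnf1-type match 223 to 213 bases before it. Fabp6 held the shorter IR-1 form at 2 places, 221 to 211 and 141 to 131 bases before the start. Slc51b held it at 1 place, 186 to 176 bases before the start, and Slc51a, Nr1h4 and Nr0b2 held none of the 4 sets of letters. Of 32851 promoter windows of the same length, 0.219% held the shorter IR-1 form, 0.006% the full one, 9.81% the Cdx-type letters and 0.116% the Hnf1-type letters. The Slc10a2 matches at 62 to 56 and 52 to 46 bases lie within the GENCODE bounds of that gene, and the Slc51b match spans the GENCODE end of its gene. A match describes letters only and is not a binding site shown by these data.

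The libraries held 36567685 to 87975179 reads in genes. Levels are given as CPM, read counts scaled to a common library size, after TMM scaling, a correction for library composition. Cdx2 itself had 78.9, 178 and 36.9 CPM in the Cdx2-/-;Apc+/- ileum and 90.1, 63.3 and 112 CPM in the Apc+/- ileum. The library labelled Cdx2-/-;Apc+/- ileum replicate 2, at 178 CPM, was thus above every Apc+/- ileum library. It also had 19310 CPM summed over 18 small intestinal enterocyte markers, against 971 and 2073 CPM in replicates 1 and 3 of its group. Its summed level of 11 stomach markers was 568 CPM, against 5156 and 8487 CPM in those 2 libraries and 321 to 492 CPM in the Apc+/- ileum. Tests of the members that use this group are therefore given below with and without that library. Group means and single pathway genes are given with it only. In the cecum Cdx2 ranged from 122 to 151 CPM in the Cdx2-/-;Apc+/- libraries, from 130 to 349 CPM in the 6 Cdx2-/- libraries and from 115.5 to 118 CPM in the Cdx2+/- libraries, against 408 to 663 CPM in WT. A count over the whole gene also takes in shortened transcripts of a floxed allele, so it does not show whether Cdx2 was deleted in a library. Cdx2 protein was not measured. Set 1 of the Cdx2-/- cecum was female by Xist and all other libraries were male, and set 1 replicates 2 and 3 differed less than any other 2 libraries of a group (chi-square per degree of freedom 7.03, against 52.99 to 506.5), though by more than counting noise.

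**Figure D1:**
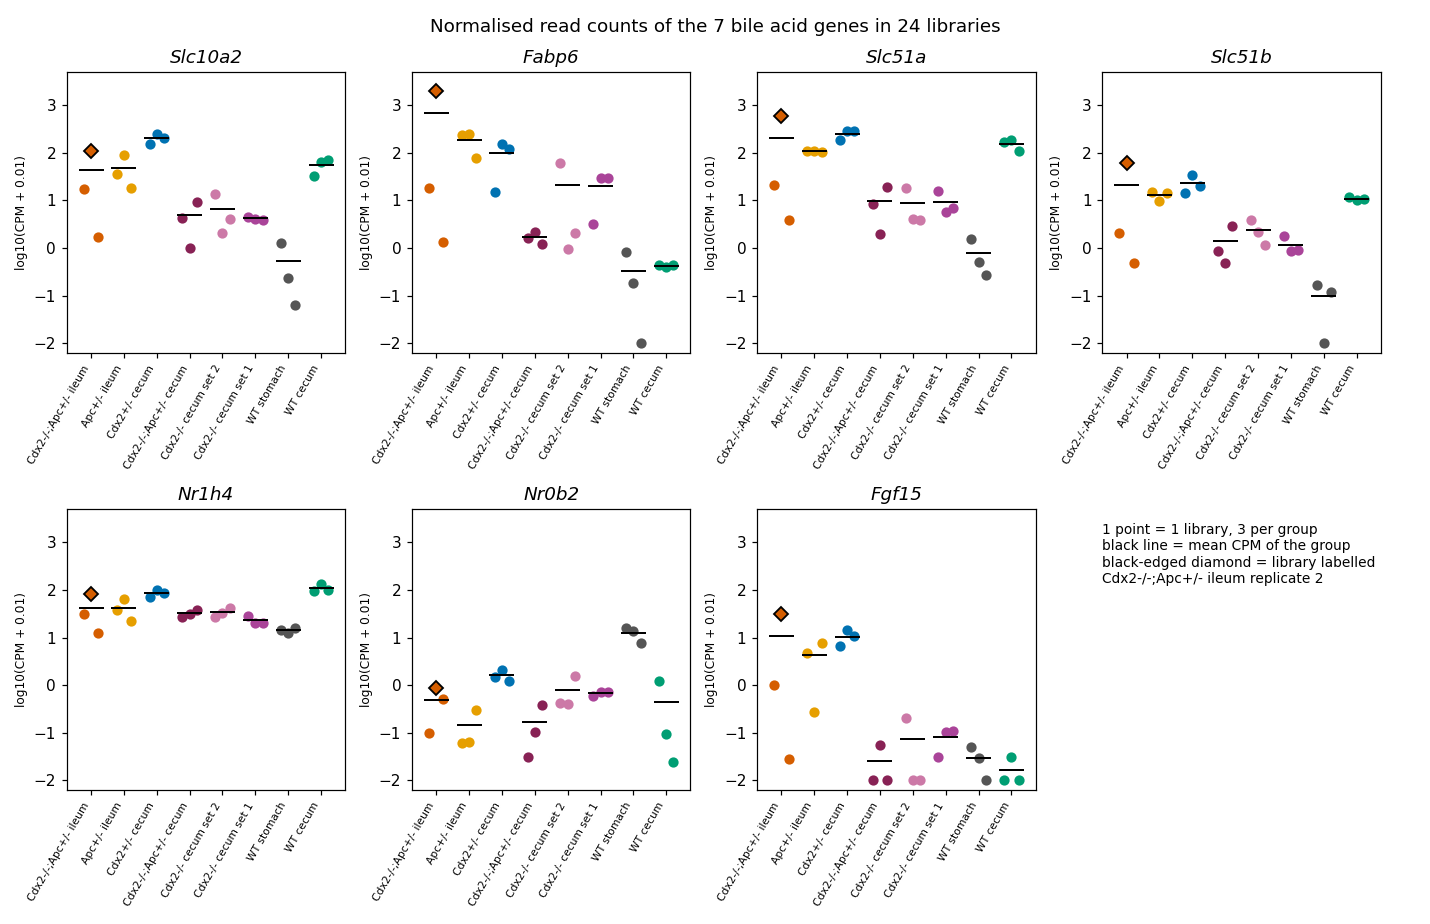
Levels of the 7 genes in every library, as log10 of CPM + 0.01 on the vertical axis, with 3 points for each of the 8 groups, a black line at the group's mean CPM and a black-edged diamond for the library labelled Cdx2-/-;Apc+/- ileum replicate 2. Slc10a2, Slc51a and Slc51b were high in the Cdx2+/- cecum, WT cecum and Apc+/- ileum, and Nr0b2 in the stomach. Fabp6 and Fgf15 had their highest means in both ileum groups and the Cdx2+/- cecum. In the Cdx2-/-;Apc+/- ileum, replicates 1 and 3 had 17.9 and 1.34 CPM of Fabp6 and 0.982 and 0.0184 CPM of Fgf15. Fabp6 reached 60.9 CPM in the Cdx2-/- cecum.

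The ileum comparison asks what loss of Cdx2 does in the tissue where these genes are best known. With all 3 libraries in, edgeR called 0 of the 7 members at an adjusted p under 0.05, where 0.444% of all genes tested were called, 0.395% higher and 0.0488% lower. Their adjusted p ran from 0.649 to 0.999. None of the 7 had an unadjusted p under 0.05, and DESeq2 called 0 of the 6 members to which it gave a p-value. The spread of the Cdx2-/-;Apc+/- libraries was wide. For uptake, Slc10a2 had 17.4, 110 and 1.69 CPM in the Cdx2-/-;Apc+/- ileum and 36.4, 92.0 and 18.0 CPM in the Apc+/- ileum. The 2 groups overlapped, with replicate 2 above and replicates 1 and 3 below every Apc+/- library. Fabp6 had 17.9, 2016 and 1.34 CPM in the Cdx2-/-;Apc+/- ileum, against 241, 244 and 78.4 CPM in the Apc+/- ileum. Replicate 2 thus held the highest Fabp6 level of the series, while replicates 1 and 3 were below every Apc+/- ileum library. For the basolateral exporter, Slc51a had 21.0, 583 and 3.94 CPM in the Cdx2-/-;Apc+/- ileum and 109, 108 and 106 CPM in the Apc+/- ileum. Its partner chain Slc51b had 2.03, 62.0 and 0.478 CPM in the Cdx2-/-;Apc+/- ileum, against 14.7, 9.69 and 14.2 CPM in the Apc+/- ileum. Both exporter chains were close to constant across the Apc+/- ileum and spread over 2 orders of magnitude in the mutant group.

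The receptor and Fgf15 were also highest in replicate 2 and lowest in replicate 3 of the mutant group. Nr1h4 had 31.7, 84.4 and 12.4 CPM in the Cdx2-/-;Apc+/- ileum and 38.0, 66.1 and 22.6 CPM in the Apc+/- ileum, overlapping ranges. Fgf15 had 0.982, 31.4 and 0.0184 CPM in the Cdx2-/-;Apc+/- ileum, against 4.78, 0.260 and 7.69 CPM in the Apc+/- ileum. Its level was low in 1 Apc+/- library as well, so the groups overlapped even among the other libraries. Nr0b2 stayed under 1 CPM in all 6 ileum libraries, at 0.0893, 0.875 and 0.497 CPM in the Cdx2-/-;Apc+/- ileum and 0.0511, 0.0557 and 0.294 CPM in the Apc+/- ileum.

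The library labelled replicate 2 was singled out after the data were seen, and it was the highest of its group for every member. Leaving it out therefore lowers each estimate in advance, and the values without it are not independent support for a decrease. Without it, the direction turned for 5 members and 1 passed the test. That fit called 583 genes, 2.79% of those tested, against 91 with all libraries. Slc51b was then called lower, with a log2 fold change of -3.36 ± 0.82 (SE, adjusted p = 0.0327, edgeR), compared with 0.74 ± 1.01 with all 3 libraries. Slc51a moved to -3.11 ± 0.93 (adjusted p = 0.0840), against 0.91 ± 1.09 with all 3. Fabp6 moved to -4.29 ± 1.61 (adjusted p = 0.180), against 1.86 ± 1.61. Fgf15 moved to -3.11 ± 1.26 (adjusted p = 0.217), against 1.35 ± 1.28, and Nr1h4 to -0.94 ± 0.38 (adjusted p = 0.2202), against 0.02 ± 0.45. Slc10a2 was at -2.36 ± 1.05 (adjusted p = 0.272), against -0.18 ± 1.00, and Nr0b2 at 1.12 ± 1.198 (adjusted p = 0.727), against 1.84 ± 1.08. With 2 mutant libraries these estimates rest on a spread shared with the other groups. In whole tissue, fewer cells of a type and less RNA per cell cannot be told apart, and the 2 remaining mutant libraries had enterocyte marker sums of 971 and 2073 CPM, against 4617 to 8191 CPM in the Apc+/- ileum. Without replicate 2, 4 of the 18 enterocyte markers were called lower and 0 higher, and their part in the result was not tested.

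**Figure D2:**
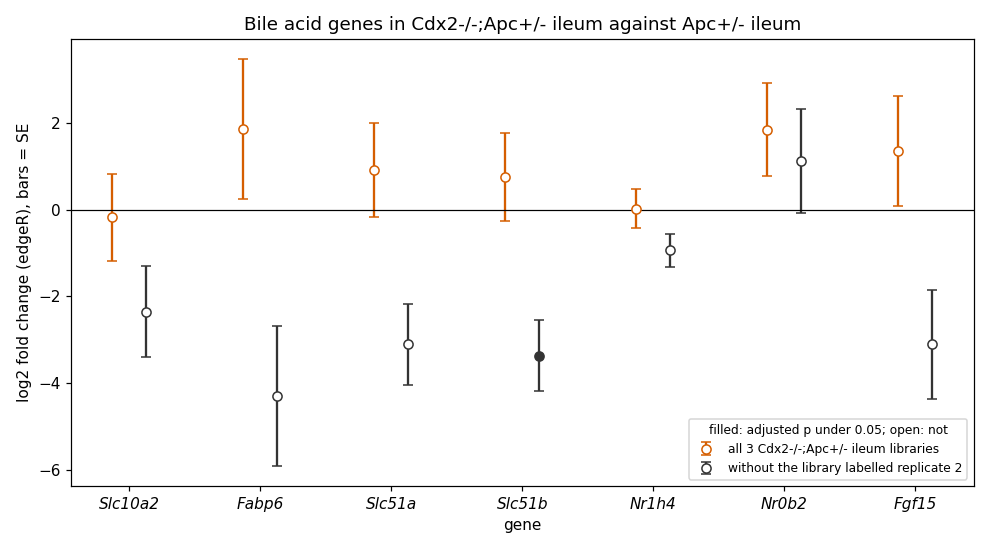
Log2 fold changes in the Cdx2-/-;Apc+/- ileum against the Apc+/- ileum on the vertical axis for the 7 genes, with bars of 1 SE, from all 3 mutant libraries and from the 2 left without the library labelled replicate 2. Filled points have an adjusted p under 0.05. Slc51b at -3.36 without that library is the filled point.

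The Cdx2-/- cecum was compared with the WT cecum to ask what Cdx2 loss does further down the gut. The transport and receptor genes fell and Fabp6 rose. Of the 7 members edgeR called 4 lower and 1 higher, in a comparison where 53.1% of all genes were called, 26.2% lower and 26.9% higher. The median log2 fold change of the 7 was -1.97, against 0.04 over all genes tested. Slc10a2 ranged from 2.09 to 13.8 CPM with a median of 4.045 CPM in the 6 Cdx2-/- libraries, against 33.3, 63.4 and 71.8 CPM in WT. Every mutant library was below every WT library, and the log2 fold change was -3.42 ± 0.85 (adjusted p = 0.00235). Slc51a ranged from 3.85 to 18.6 CPM with a median of 6.33 CPM in the Cdx2-/- libraries, and WT had 168, 186 and 109 CPM. It fell by 4.08 ± 0.93 on the log2 scale (adjusted p = 0.00111), the largest decrease among the members. Slc51b ranged from 0.855 to 3.84 CPM with a median of 1.46 CPM in the Cdx2-/- libraries, against 11.9, 10.1 and 10.5 CPM in WT. Its log2 fold change was -2.69 ± 0.86 (adjusted p = 0.0126), and in set 2 alone it missed the threshold (-2.18, adjusted p = 0.0958).

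Nr1h4, the bile acid receptor, ranged from 19.96 to 41.6 CPM with a median of 28.1 CPM in the Cdx2-/- cecum, against 93.3, 134 and 101 CPM in WT. The groups did not overlap, and the log2 fold change was -1.97 ± 0.37 (adjusted p = 0.000194). Fabp6 went the other way. It ranged from 0.961 to 60.9 CPM with a median of 16.1 CPM in the Cdx2-/- libraries, while WT was uniformly low at 0.424, 0.397 and 0.431 CPM. The log2 fold change was 5.64 ± 1.95 (adjusted p = 0.0206), and the mutant libraries were far apart, at 3.21, 29.3 and 29.1 CPM in set 1 and 60.9, 0.961 and 2.07 CPM in set 2. This call was lost without any 1 of the 3 WT libraries, and without set 2 replicate 4 (log2 fold change 3.73, adjusted p = 0.0697). Leaving out each library in turn gave log2 fold changes from 3.73 to 5.92 and adjusted p from 0.0150 to 0.0701. The FXR target Nr0b2 ranged from 0.389 to 1.56 CPM with a median of 0.644 CPM in the Cdx2-/- cecum, against 1.22, 0.0837 and 0.0149 CPM in WT, and was not called (0.80 ± 0.89, adjusted p = 0.470). WT replicate 1 decides that value: without it Nr0b2 was called higher (3.94, adjusted p = 0.00783).

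Fgf15 was near the limit of detection in both cecum groups. It had 24 reads over the 6 Cdx2-/- libraries and 1 read over the 3 WT libraries. The ratio of their shares of the reads was 10.2, with an exact 95% interval of 1.66 to 418 that covers counting error only, and edgeR did not call it (adjusted p = 0.365). Sets 1 and 2 of the Cdx2-/- cecum were compared directly, and edgeR called 0 of the 7 members between them, where 10.5% of all genes were called, 4.03% higher and 6.45% lower. None had an unadjusted p under 0.05, and DESeq2 called 0 of 6. The sex of the mice goes with the set there. Beside these changes the summed level of 12 colonocyte markers was 89.3 to 2473 CPM in the Cdx2-/- cecum and 22650 to 40280 CPM in WT, with 11 of 12 called lower and no marker at 0. The summed level of the 12 general epithelial markers was 7275 to 17210 CPM in the Cdx2-/- cecum and 14340 to 23830 CPM in WT. Enterocyte markers summed to 835 to 1961 CPM in the Cdx2-/- cecum and 2531 to 4434 CPM in WT, with 8 of 18 called higher, 5 lower and Slc2a2 at 0 in WT alone. Their part in the members' changes was not tested. Scaled to the epithelial markers instead of TMM, all 5 member calls remained, while the median of all genes moved by 0.50 on the log2 scale.

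The Cdx2-/-;Apc+/- cecum adds the mutant Apc allele to loss of Cdx2. Against the same WT libraries, the Cdx2-/-;Apc+/- cecum had the same 4 genes called lower and 0 members called higher, where 52.8% of all genes were called, 26.6% higher and 26.1% lower. Slc10a2 had 4.32, 0.971 and 9.26 CPM in the Cdx2-/-;Apc+/- cecum, with a log2 fold change of -3.53 ± 1.11 (adjusted p = 0.0124). Slc51a had 8.399, 1.94 and 18.9 CPM there (-3.98 ± 1.22, adjusted p = 0.0102), and Slc51b 0.851, 0.463 and 2.92 CPM (-2.93 ± 1.11, adjusted p = 0.0323). Nr1h4 had 27.5, 30.9 and 38.6 CPM there (-1.76 ± 0.46, adjusted p = 0.00345). All 4 stood below every WT library, and the share of all genes that did so was not counted. The call of Slc51b was lost without WT replicate 1 or 2 or Cdx2-/-;Apc+/- replicate 1 or 2, and that of Slc10a2 without Cdx2-/-;Apc+/- replicate 2 (-3.05, adjusted p = 0.0507). Leaving out each library in turn took the adjusted p of Slc51b from 0.0214 to 0.108. Scaled to epithelial markers, Slc51b was not called either (-2.37, adjusted p = 0.0669).

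Fabp6 was low in the Cdx2-/-;Apc+/- cecum, at 1.57, 2.17 and 1.23 CPM, which is above every WT library but was not called (1.98 ± 1.90, adjusted p = 0.401). A fit of those 2 groups alone called it higher (2.05, adjusted p = 0.00401). Nr0b2 had 0.0213, 0.0925 and 0.368 CPM in the Cdx2-/-;Apc+/- cecum, and Fgf15 had 2 reads over the 3 libraries. Set directly against the Cdx2-/- cecum, edgeR called 0 of the 7 members, where 8.43% of all genes were called, 3.93% higher and 4.5% lower. Fabp6 (-3.66 ± 1.69, adjusted p = 0.184) and Nr0b2 (-2.14 ± 0.99, adjusted p = 0.185) had an unadjusted p under 0.05, and DESeq2 called 0 of 6. Fgf15 had 2 reads in the Cdx2-/-;Apc+/- cecum against 24 in the Cdx2-/- cecum, a ratio of 0.216 with an exact 95% interval of 0.0247 to 0.869 that covers counting error only.

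**Figure D3:**
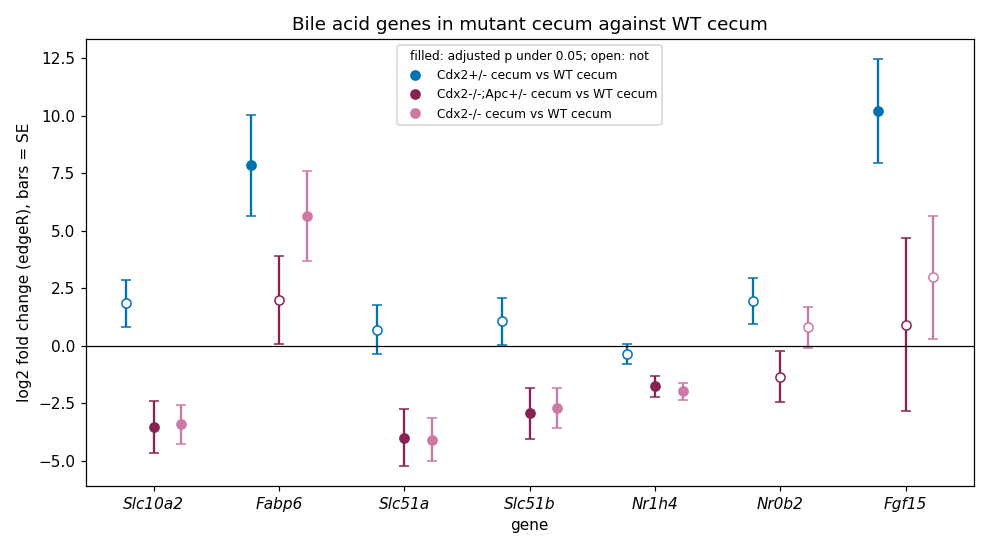
Log2 fold changes of the 7 genes in 3 mutant cecum groups against the same WT cecum libraries, with bars of 1 SE and filled points for an adjusted p under 0.05. Slc10a2, Slc51a, Slc51b and Nr1h4 lie below 0 in the Cdx2-/- and the Cdx2-/-;Apc+/- cecum, while Fabp6 and Fgf15 reach 7.85 and 10.21 in the Cdx2+/- cecum.

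In the heterozygous Cdx2+/- cecum, from untreated mice and set against the same WT libraries, Fabp6 and Fgf15 rose and no member was called lower: edgeR called 2 of the 7 members higher and 0 lower, where 34.4% of all genes were called, 17.1% higher and 17.3% lower. Fabp6 had 15.3, 152 and 123 CPM in the Cdx2+/- cecum, against 0.424, 0.397 and 0.431 CPM in WT. Its log2 fold change was 7.85 ± 2.19 (adjusted p = 0.00903). Fgf15 had 6.71, 14.3 and 10.6 CPM in the Cdx2+/- cecum, against 0, 0.0209 and 0 CPM in WT. That is 1710 reads in the 3 Cdx2+/- libraries against 1 read in WT, a ratio of 1652 with an exact 95% interval of 296 to 65290 that covers counting error only (adjusted p = 0.00169). In the Cdx2+/- cecum the transcript of this hormone thus had a level within the range of the Apc+/- ileum libraries or above it.

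Uptake and export genes were as high in the Cdx2+/- cecum as in WT or higher. Slc10a2 had 152, 253 and 201 CPM in the Cdx2+/- cecum, above all WT libraries, but the fit of all groups did not call it (1.84 ± 1.03, adjusted p = 0.177). Slc51a had 184, 290 and 281 CPM in the Cdx2+/- cecum (0.71 ± 1.08, adjusted p = 0.651), and Slc51b 14.2, 33.8 and 19.96 CPM (1.06 ± 1.02, adjusted p = 0.451). The shared estimate of spread includes the wide ileum and stomach groups. In a fit of the Cdx2+/- and WT cecum alone, all 3 were called higher, Slc10a2 at 1.87 (adjusted p = 0.00531), Slc51b at 1.10 (adjusted p = 0.0309) and Slc51a at 0.75 (adjusted p = 0.0482). Nr1h4 had 69.9, 100.1 and 88.1 CPM in the Cdx2+/- cecum and overlapped WT (-0.35 ± 0.45, adjusted p = 0.581). Nr0b2 had 1.48, 2.10 and 1.21 CPM in the Cdx2+/- cecum (1.94 ± 1.00, adjusted p = 0.144), and it was called higher without WT replicate 1 (5.07, adjusted p = 0.00361).

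Against the Cdx2-/- cecum, 5 members were higher in the Cdx2+/- cecum and 0 lower, where 40.3% of all genes were called, 20.6% higher and 19.7% lower. Fgf15 differed by 7.23 ± 1.3 on the log2 scale (adjusted p = 0.000435), Slc10a2 by 5.26 ± 0.90 (adjusted p = 0.000293), Slc51a by 4.79 ± 0.95 (adjusted p = 0.000900), Slc51b by 3.76 ± 0.87 (adjusted p = 0.00267) and Nr1h4 by 1.62 ± 0.37 (adjusted p = 0.00251). Fabp6 was not called (2.21 ± 1.3, adjusted p = 0.181), but was called without Cdx2-/- set 2 replicate 4 (4.12, adjusted p = 0.0251). Nr1h4 was not called when libraries were scaled to epithelial markers (0.57, adjusted p = 0.169), a scaling that moved the median of all genes by -1.09. Cell type markers of the Cdx2+/- cecum differed widely from both the Cdx2-/- and the WT cecum. In the Cdx2-/- cecum, enterocyte markers summed to 835 to 1961 CPM and colonocyte markers to 89.3 to 2473 CPM. Stomach markers summed there to 2884 to 25020 CPM and smooth muscle markers to 1401 to 3097 CPM. The marker calls that follow are against WT, where 17.1% of all genes were called higher and 17.3% lower. In the Cdx2+/- cecum, enterocyte markers summed to 5181 to 10870 CPM, against 2531 to 4434 CPM in WT, and 11 of 18 were called higher and 0 lower. The colonocyte sum was 4208 to 5585 CPM in the Cdx2+/- cecum, against 22650 to 40280 CPM in WT, with 7 of 12 called lower and 1 higher. The stomach sum was 32710 to 34570 CPM in the Cdx2+/- cecum, against 6.92 to 1115 CPM in WT, with 6 of 11 called higher. Smooth muscle markers, all 8 called lower, summed to 123 to 547 CPM in the Cdx2+/- cecum, against 1169 to 3961 CPM in WT. No marker of these 4 lists was at 0 in all Cdx2+/- libraries, and the part of these differences in the members' levels was not tested.

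**Figure D4:**
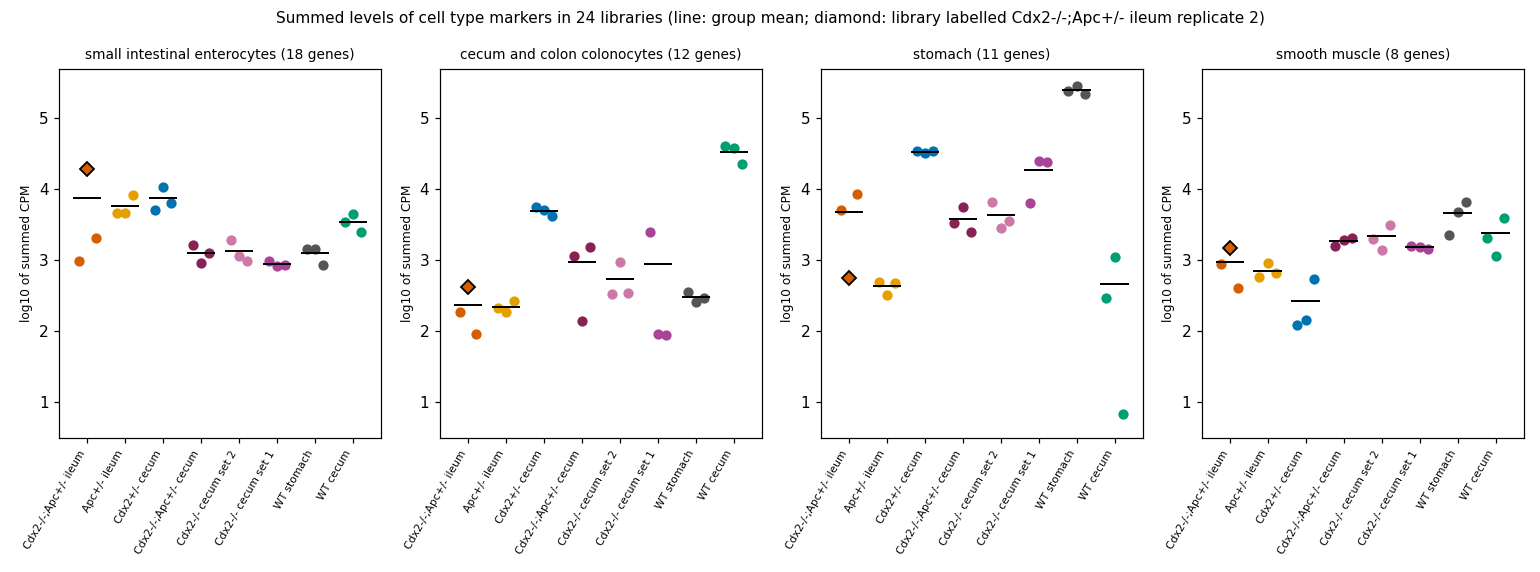
Summed CPM of 4 marker lists in each library on a log10 axis, with 3 points per group and a line at the group mean. The Cdx2+/- cecum was between 32710 and 34570 CPM for stomach markers and between 5181 and 10870 CPM for enterocyte markers, and the library labelled Cdx2-/-;Apc+/- ileum replicate 2 (diamond) was at 19310 CPM for enterocyte markers.

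Tissues were compared next. The Apc+/- ileum was set against the WT cecum, with Apc genotype going with tissue. Of the 7 members 2 were higher and 1 lower in the ileum, where 55.4% of all genes were called, 28.1% higher and 27.2% lower. Fabp6 was higher in the ileum by 8.80 ± 2.26 on the log2 scale (adjusted p = 0.00288). Fgf15 had 793 reads in the Apc+/- ileum against 1 read in the WT cecum, a ratio of 684 with an exact 95% interval of 122 to 27030 (adjusted p = 0.00234). Of these reads 281 and 498 came from replicates 1 and 3, whose labels disagree, and 14 from replicate 2, and with replicate 2 alone Fgf15 was not called (4.92, adjusted p = 0.179). Nr1h4 was lower in the ileum by -1.38 ± 0.45 (adjusted p = 0.0150), a call lost without WT replicate 2, Apc+/- replicate 1 or Apc+/- replicate 3, with an adjusted p from 0.00515 to 0.0753 over the libraries left out. With Apc+/- replicate 2 alone it was not called either (-0.67, adjusted p = 0.417). Slc10a2 (-0.20 ± 1.00, adjusted p = 0.878), Slc51a (-0.52 ± 1.08, adjusted p = 0.703) and Slc51b (0.24 ± 1.01, adjusted p = 0.855) were not called. The highest Slc51a level of the Apc+/- ileum, 108.5 CPM, was just under the lowest of the WT cecum, 108.9 CPM. Colonocyte markers summed to 189 to 267 CPM in the Apc+/- ileum and enterocyte markers to 4617 to 8191 CPM.

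In the stomach the transport genes were low. Against the WT cecum, 4 members were lower and 1 higher in the WT stomach, where 43.7% of all genes were called, 21.6% lower and 22.1% higher. Slc10a2 had 1.26, 0.227 and 0.0546 CPM in the stomach (-6.78 ± 1.34, adjusted p = 0.000409), and Slc51a had 1.56, 0.492 and 0.255 CPM (-7.66 ± 1.47, adjusted p = 0.000318). Slc51b had 0.158, 0 and 0.109 CPM in the stomach (-6.90 ± 1.43, adjusted p = 0.000641). Nr1h4 was present at 14.5, 12.6 and 15.8 CPM (-2.93 ± 0.48, adjusted p = 6.16e-05), and scaled to epithelial markers it was not called (-0.26, adjusted p = 0.579). Nr0b2 was the exception, at 16.1, 13.6 and 7.63 CPM in the stomach, above every other library of the series. Its log2 fold change against the WT cecum was 4.90 ± 1.10 (adjusted p = 0.00125). Fabp6 had 0.808, 0.170 and 0 CPM and Fgf15 at most 0.0394 CPM in the stomach, and neither was called.

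The ileum and cecum were also compared at 1 genotype and treatment, Cdx2-/-;Apc+/-. In that comparison edgeR called 4 of the 7 members higher in the ileum and 0 lower, where 16.2% of all genes were called, 9.59% higher and 6.6% lower. They were Fabp6 (8.68 ± 2.20, adjusted p = 0.0119), Fgf15 (1948 against 2 reads, a ratio of 849 with an exact 95% interval of 235 to 7014, adjusted p = 0.00607), Slc51a (4.38 ± 1.24, adjusted p = 0.0218) and Slc51b (3.92 ± 1.15, adjusted p = 0.0259). Slc10a2 missed the threshold (3.15 ± 1.10, adjusted p = 0.0565), and it was at 0.97 (adjusted p = 0.563) without the library labelled ileum replicate 2. The 2 groups overlapped for all 7 members. Without the library labelled ileum replicate 2, 0 of the 7 members were called, where 11.9% of all genes were: Fgf15 was at 4.88 (adjusted p = 0.0730), Fabp6 at 2.53 (adjusted p = 0.254), Slc51a at 0.35 (adjusted p = 0.824) and Slc51b at -0.19 (adjusted p = 0.902). Fabp6, Slc51a and Slc51b also lost the call without cecum replicate 1 or cecum replicate 2, and in a fit of these 2 groups alone, which gave no value for Fgf15.

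Whether Cdx2 loss acts differently in the 2 tissues was tested as the ileum effect minus the cecum effect. Of the 7 members 2 were called, both higher, where 35% of all genes were called, 17.8% higher and 17.2% lower. Slc51a differed by 4.99 ± 1.48 on the log2 scale (adjusted p = 0.0132): its change was 0.91 in the ileum and -4.08 in the cecum. Nr1h4 differed by 1.99 ± 0.59 (adjusted p = 0.0130), with 0.02 in the ileum and -1.97 in the cecum. Both calls ended under more than 1 alternative. Without the library labelled Cdx2-/-;Apc+/- ileum replicate 2, Slc51a was at 0.97 (adjusted p = 0.508) and Nr1h4 at 1.03 (adjusted p = 0.103). The difference of effects for Fabp6 was then called lower, at -9.93 (adjusted p = 0.00310), against -3.78 and not called with all libraries. With Apc+/- ileum replicate 2 alone for its group, Slc51a was at 4.95 (adjusted p = 0.1415) and Nr1h4 at 1.3 (adjusted p = 0.221), and scaled to epithelial markers Nr1h4 was at 1.39 (adjusted p = 0.125). All ileum libraries carry the mutant Apc allele and the cecum libraries of this test do not, so Apc and tissue cannot be told apart here.

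Ordered by mean level, Slc10a2 was highest in the Cdx2+/- cecum (202 ± 50.8 CPM, SD, n = 3) and overlapped no other group, and the WT cecum (56.2 ± 20.3), the Apc+/- ileum (48.8 ± 38.5) and the Cdx2-/-;Apc+/- ileum (43.0 ± 58.5) followed and overlapped each other. Slc51a was in the order Cdx2+/- cecum (252 ± 58.7), Cdx2-/-;Apc+/- ileum (203 ± 330), WT cecum (154 ± 40.3) and Apc+/- ileum (108 ± 1.13). The last 2 were barely apart, with 108.9 CPM lowest in the WT cecum and 108.5 CPM highest in the Apc+/- ileum. For both genes all groups of Cdx2-/- cecum, with or without the mutant Apc allele, lay under 10 CPM on average and overlapped each other, and the stomach came last. Nr1h4 ran from 14.3 ± 1.61 CPM in the stomach to 110 ± 21.9 CPM in the WT cecum. Per kilobase of exon, the ratio of Slc51a to Slc51b ranged from 0.429 to 4.07. WT stomach replicate 2, with 0 reads of Slc51b, has no ratio. It was 0.429 to 1.07 in Cdx2-/- set 2, against 2.30 to 4.07 in the WT cecum. The ratio of Fabp6 to Slc10a2 per kilobase varied more. That ratio was 23.0 to 57.4 in the Apc+/- ileum and 6.16 to 64.1 in Cdx2-/- set 1. In the Cdx2+/- cecum it was 0.875 to 5.29, against 0.0520 to 0.110 in the WT cecum.

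How the members varied together over the 24 libraries is described here by correlations of log2 CPM, which include differences between tissues and genotypes. Slc10a2 followed Slc51a (Pearson r = 0.970, Spearman rho = 0.970) and Slc51b (r = 0.935, rho = 0.931), and the 2 exporter chains followed each other (r = 0.967, rho = 0.941). Nr1h4 followed these 3 genes with r between 0.827 and 0.845. Fabp6 and Fgf15 followed each other (r = 0.825, rho = 0.825) and Slc51a less (r = 0.630 for Fabp6, 0.663 for Fgf15). With group means removed, r was 0.886 for Slc10a2 with Slc51a, 0.909 for Slc51a with Slc51b and 0.776 for Fabp6 with Fgf15, and 0.862, 0.841 and 0.654 without the library labelled ileum replicate 2. Within groups Fabp6 also followed Slc10a2 (r = 0.792, and 0.721 without that library) and Slc51a (r = 0.772, and 0.638 without it), so the closer link of Fabp6 to Fgf15 over all libraries was not seen there. For Nr1h4 within groups, r was 0.686 with Slc10a2, 0.677 with Slc51a and 0.706 with Slc51b. Without that library these values were 0.571, 0.483 and 0.516. Over all libraries Nr0b2 followed none of the other members, with r from -0.416 to 0.006. Libraries of 1 group share tissue and genotype, so the 24 points are not independent.

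**Figure D5:**
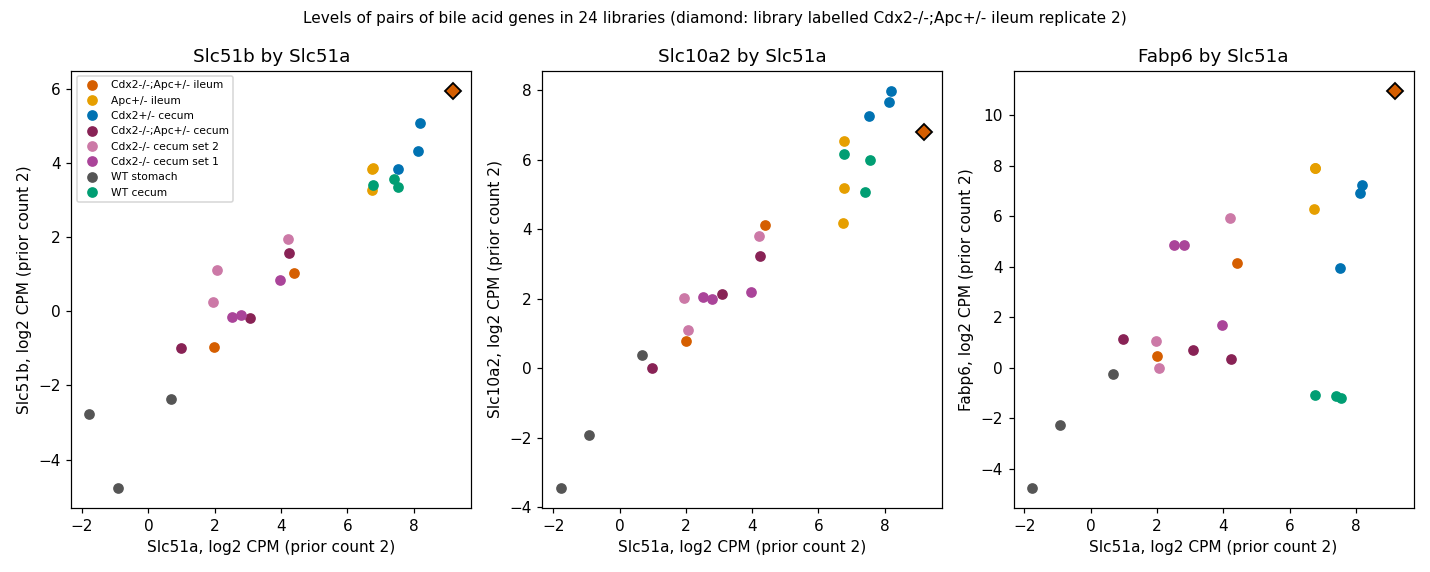
Log2 CPM of Slc51b, Slc10a2 and Fabp6 on the vertical axes against log2 CPM of Slc51a in the 24 libraries, coloured by group, with the library labelled Cdx2-/-;Apc+/- ileum replicate 2 as a diamond. Slc51b and Slc10a2 lie along a line with Slc51a, while Fabp6 in the 3 WT cecum libraries lies between 0.397 and 0.431 CPM while Slc51a is between 109 and 186 CPM.

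Among 12605 other genes, those most like Slc10a2 over the 24 libraries were Slc3a1 (r = 0.964), a subunit of the cystine and dibasic amino acid transporter, Clec2h (r = 0.948) and Cyp4f14 (r = 0.940). Slc3a1 was also the closest to Slc51a (r = 0.976), followed by Sept5 and Cyp4f14 (both 0.964), and to Slc51b (r = 0.956), followed by Clec2h (0.954) and Tubal3 (0.949). Among those closest to Fabp6 were the amino acid transporter gene Slc7a9 (r = 0.909) and the trypsin inhibitor gene Spink1 (0.903). Closest to Fgf15 were Bcl2l15 (0.917), the dipeptidase gene Cndp2 (0.904) and the peptide transporter gene Slc15a1 (0.897). Their Spearman rho with Fgf15 was lower, at 0.822, 0.76 and 0.652, and Fgf15 had 0 reads in 7 of the 24 libraries. Nr1h4 was most like the actin-severing gene Scin (0.936), the brush border protease gene Mep1a (0.932) and the efflux pump gene Abcg2 (0.926), and Nr0b2 like Tmem51 (0.885), Arhgef18 (0.854) and Slc26a10 (0.853).

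The rest of the pathway was described from 7 lists of 68 genes in all. In the Cdx2-/- cecum, 6 of 9 receptors and partners of FXR were called lower and 0 higher, and the counts of each list there stand beside 26.2% of all genes called lower and 26.9% higher. Rxra, the retinoid X receptor that pairs with FXR, had 86.2 ± 5.55 CPM (n = 6) there, against 316 ± 68.6 CPM (n = 3) in WT (-1.87 ± 0.20). The vitamin D receptor gene Vdr, which also binds lithocholic acid, had 28.4 ± 16.4 CPM in the Cdx2-/- cecum, against 639 ± 160 CPM in WT (-4.49 ± 0.63). Ppara fell by 4.00 ± 0.50 and Nr1i2, the xenobiotic receptor PXR, by 1.31 ± 0.27 on the log2 scale. Of 12 ileal transcription regulators 7 were lower and 1 higher, among them Hnf4a (-2.36 ± 0.27), Hnf4g (-2.67 ± 0.40), Prdm1 (-2.19 ± 0.29) and Cdx1 (-3.28 ± 0.65). Of 11 other carriers tested 5 were higher and 3 lower. The efflux pump gene Abcc4 (MRP4) had 111 ± 5.01 CPM in the Cdx2-/- cecum, against 10.96 ± 3.63 CPM in WT (3.34 ± 0.24), while the prostaglandin carrier gene Slco2a1 (-3.44 ± 0.35) and the organic anion carrier gene Slco2b1 (-2.95 ± 0.30) fell. All had an adjusted p of at most 0.000512 in edgeR.

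Genes of the Fgf15 signal were split in the Cdx2-/- cecum, with 2 of 6 higher, 2 lower and 2 not called. Fgfr4, the receptor for Fgf15, had 45.0 ± 20.9 CPM in the Cdx2-/- cecum, against 12.4 ± 4.27 CPM in WT (1.75 ± 0.26), and Fgfr1 also rose (1.07 ± 0.27). Fgfr2 fell (-2.196 ± 0.24), as did Malrd1, which encodes a protein that raises Fgf15 output in the ileum (-1.89 ± 0.69, adjusted p = 0.0284). The coreceptor gene Klb did not exceed 1.67 CPM in any library. Of 8 genes of bile acid synthesis tested 5 were higher and 1 lower. Cyp7b1 had 6.97 ± 2.62 CPM in the Cdx2-/- cecum, against 0.651 ± 0.313 CPM in WT (3.34 ± 0.42), and Slc27a2, a fatty acid and bile acid CoA ligase gene, fell by 6.17 ± 0.75. Cyp7a1, the hepatic rate-limiting enzyme that Fgf15 represses, had 0 reads in all 24 libraries. Of 10 detoxification genes 2 were higher and 5 lower, including Cyp3a13 (-3.02 ± 0.39), Ugt2b34 (-1.98 ± 0.17) and Ugt1a1 (-4.55 ± 0.69), with Ephx1 higher (1.71 ± 0.28).

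In the Cdx2+/- cecum against WT, where 17.1% of all genes were called higher and 17.3% lower, 1 of 9 receptors was higher and 1 lower. Rxra had 160 ± 12.5 CPM in the Cdx2+/- cecum, against 316 ± 68.6 CPM in WT (-0.98 ± 0.24, adjusted p = 0.00360), and Nr1h3, the oxysterol receptor LXRα, rose by 1.03 ± 0.32. Gata4, a factor of the proximal small intestine and the stomach, had 150.2, 131 and 126 CPM in the Cdx2+/- cecum, against 1.06, 2.66 and 0.0594 CPM in WT. Of 12 regulators 3 were higher and 4 lower, and Gata4 (6.78 ± 1.40, adjusted p = 0.00102) and Maf (2.52 ± 0.61) were among the higher ones. Of 11 carriers tested 5 were higher and 2 lower, led by Abcc4 (2.46 ± 0.24) and Abcc2 (4.95 ± 1.00). Of 10 detoxification genes 3 were higher and 3 lower, with Cyp3a25 at 20.1 ± 7.47 CPM in the Cdx2+/- cecum, against 0.0812 ± 0.0226 CPM in WT (7.94 ± 1.38). The sterol exporter genes Abcg5 (6.99 ± 0.90) and Abcg8 (6.93 ± 1.07) rose with them. No Fgf15 receptor gene rose in the Cdx2+/- cecum, and Fgfr2 (-3.58 ± 0.31) and Fgfr3 (-1.38 ± 0.28) fell.

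In the ileum comparison 2 of the 64 pathway genes tested were called with all libraries in, against 0.444% of all genes, both higher in the Cdx2-/-;Apc+/- ileum. Abcc3 (MRP3), a basolateral exporter of bile acids and glucuronides, had 204 ± 102 CPM in the Cdx2-/-;Apc+/- ileum, against 64.1 ± 0.656 CPM in the Apc+/- ileum (n = 3 each), a log2 fold change of 1.67 ± 0.31 (adjusted p = 0.0203). The sulfotransferase gene Sult1c2 had 103 ± 102 CPM in the Cdx2-/-;Apc+/- ileum, against 2.80 ± 0.787 CPM in the Apc+/- ileum (5.21 ± 0.66, adjusted p = 0.00127). Sult1c2 was also high in the WT stomach, at 589 CPM on average. Without the library labelled replicate 2, where 2.79% of all genes were called, 4 pathway genes were called higher and 7 lower: 3 of the 12 regulators, 1 receptor, 1 gene of the Fgf15 signal, 1 detoxification gene and 1 other responsive gene were the lower ones.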

How the data were processed

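RNA from whole mouse tissue was sequenced from TruSeq mRNA libraries (24 libraries, 8 groups of 3). The deposited values are raw read counts per Ensembl gene, 1 table per library. These counts were made by the authors with CASAVA, TopHat2 2.0.11 and HTSeq 0.5.3p3 on GRCm38, per the submitters' processing notes. Whether counting used strand, with which options and on which gene models is not given in the sources used here. The 5 entries that name no gene were left out: no feature (6.62 to 10.4% of reads and alignments listed), ambiguous (2.00 to 3.44%) and not uniquely aligned (17.3 to 30.0%). Of 39179 identifiers 37607 matched a symbol.

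Counts were fitted in edgeR 4.0.16 (R 4.3.3; TMM, filterByExpr, quasi-likelihood F test) over all 8 groups, which then share 1 estimate of spread. P-values were adjusted by Benjamini-Hochberg over 20502 genes, a gene was called under 0.05, and SE is the log2 fold change divided by the square root of F. DESeq2 1.42.0, other scalings, no filter, other fits and each library left out were alternatives. The scripts were tested on simulated data. Levels between genes were compared per 1000 bases of GENCODE exon.

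The members, lists and tests were chosen with earlier results of these data known. Named are the 7 members, up to 4 genes per pathway list with the smallest adjusted p in a comparison, and the 3 genes of at least 5 CPM most correlated with each member, of which some are not reported here. Exact 95% intervals of ratios of reads cover counting error only.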

Additional observations from a re-analysis of the deposited data

Results flagged for a closer look

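In the Cdx2-/- cecum, Slc10a2 had 13.77 CPM in set 2 replicate 4, away from the other 5 libraries, which lay between 2.086 and 4.516 CPM. Nr0b2 had 1.556 CPM in set 2 replicate 6, with the other 5 libraries between 0.3885 and 0.7227 CPM. Both stood apart by Dixon's test, which flags about 1 in 20 groups by chance. The effect of Cdx2 loss differed between ileum and cecum for Slc51a by 4.99 and for Nr1h4 by 1.99 on the log2 scale (edgeR, adjusted p = 0.0132 and 0.0130). Neither difference was called without the library labelled Cdx2-/-;Apc+/- ileum replicate 2, at 0.97 and 1.03 (adjusted p = 0.508 and 0.103).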

How the results depend on the processing

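Of 77 member results, 30 were called, and 1157 values were obtained under alternatives. All 77 kept direction and side of the threshold with RLE scaling and with no filter on low counts. Of 60 values that changed sign, 1 belonged to a called result (Slc51b, Cdx2-/-;Apc+/- ileum against cecum) and 1 was itself called (Slc51b, Cdx2-/-;Apc+/- against Apc+/- ileum), both without the library labelled Cdx2-/-;Apc+/- ileum replicate 2. DESeq2 gave Slc51a no adjusted p in any of the 11 comparisons, and it called 419 genes in the ileum comparison, where edgeR called 91. Counting error limits Fgf15 in the Cdx2-/- and WT cecum, with 24 reads and 1 read. Where no cause is given, the cause was not tested.

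Scaling to epithelial genes moved the median of all genes by up to 2.67 (stomach against WT cecum) on the log2 scale. The count of called genes was then 6275 for Cdx2-/-;Apc+/- against WT cecum, 70 for Cdx2-/-;Apc+/- against Cdx2-/- cecum, 13673 for Cdx2+/- against Cdx2-/- cecum, 152 between the Cdx2-/- sets, 18252 for stomach and 6406 for Apc+/- ileum against WT cecum, 566 between the Cdx2-/-;Apc+/- tissues and 2289 for the difference of effects. Nr1h4 turned to -0.096 in the ileum comparison and -0.0042 between the Cdx2-/-;Apc+/- tissues, Fabp6 to 2.11 in the stomach, and Fgf15 to 0.13 and Slc51a to 0.29 between the sets. The share of calls that were higher became 74.3% for Cdx2-/- against WT cecum (50.7% with TMM), 19.5% for Cdx2+/- against WT cecum (49.7%), 72.6% for Cdx2-/-;Apc+/- against WT cecum (50.4%), 85.7% for Cdx2-/-;Apc+/- against Cdx2-/- cecum (46.6%), 4.83% for Cdx2+/- against Cdx2-/- cecum (51.1%), 52.6% between the sets (38.5%), 97.3% for the stomach (50.5%) and 71.9% between the Cdx2-/-;Apc+/- tissues (59.2%). In the ileum DESeq2 gave 74.5% (89% with edgeR).

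With only the compared groups fitted, the counts were 1 in the ileum, 1053 for Cdx2-/-;Apc+/- against Cdx2-/- cecum and 0 between the Cdx2-/-;Apc+/- tissues. With set 1 alone, Cdx2-/-;Apc+/- against Cdx2-/- cecum had 4465 calls, Slc10a2 at 0.22 and Slc51b at 0.27, and Cdx2+/- against Cdx2-/- cecum had 5340. With set 2 alone the first had 2 calls and Nr1h4 at -0.083. With set 1 replicates 2 and 3 added up, it had 1010 calls and Slc51a at -0.013, and the sets differed at 970 genes with Fgf15 at 0.092. With Apc+/- ileum replicate 2 as its whole group, the ileum comparison had 12 calls and Nr1h4 at -0.64, Slc10a2 was at 0.76 and Slc51b at -0.11 against WT cecum, and the difference of effects had 4463 calls with Fgf15 at 2.37. With replicates 1 and 3 alone, Slc10a2 was at 0.66 in the ileum.

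With 3 libraries per group, whether replicate numbers pair the samples could not be decided. Same-numbered deviations correlated from -0.298 to 0.33 over 9 pairs of groups. In Cdx2+/- and WT cecum these correlations were 0.123, 0.08 and 0.17. There 6 of 6 libraries correlated best with their own number, against 0 to 4 of 6 elsewhere. The replicate block, without set 2, gave 4326 calls for Cdx2-/-;Apc+/- against Cdx2-/- cecum, with Slc10a2 at 0.39 and Slc51b at 0.27, and 5363 for Cdx2+/- against Cdx2-/- cecum. In the ileum the block put Fgf15 at -0.24 and Nr1h4 at -0.053. It ended the calls of Slc51b in the Cdx2-/-;Apc+/- cecum (-2.89, adjusted p = 0.0561), of Slc51a and Slc51b between the Cdx2-/-;Apc+/- tissues (3.96 and 3.57, adjusted p = 0.0769 and 0.0929) and of Slc51a in the difference of effects (4.64, adjusted p = 0.0611).

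Leaving out each library in turn gave 3 to 583 calls in the ileum comparison, where 91 genes were called: 583 without Cdx2-/-;Apc+/- replicate 2, 55 without its replicate 3, 3 without Apc+/- replicate 1 and 22 without Apc+/- replicate 3. For Cdx2-/-;Apc+/- against Cdx2-/- cecum it gave 280 to 1862 calls, with 280 and 974 without Cdx2-/-;Apc+/- replicate 2 or 3 and 940, 1060 and 1069 without set 1 replicate 2, set 1 replicate 3 or set 2 replicate 4. Between the sets it gave 665 to 2091, with 1340, 872 and 1034 without set 1 replicate 1, 2 or 3 and 1175 and 665 without set 2 replicate 4 or 5. Between the Cdx2-/-;Apc+/- tissues it gave 1620 to 3405, with 2023 and 1620 without cecum replicate 1 or 2. In the ileum comparison the log2 fold change ran from -4.29 to 2.44 for Fabp6, -3.11 to 2.10 for Fgf15, -0.94 to 0.50 for Nr1h4, -2.36 to 0.66 for Slc10a2, -3.11 to 1.49 for Slc51a and -3.36 to 1.32 for Slc51b. Between the sets it ran from -3.76 to 0.62 for Fabp6, -4.96 to 0.53 for Fgf15, -0.72 to 0.55 for Nr0b2, -0.45 to 1.09 for Slc10a2 and -1.24 to 0.48 for Slc51a. For Cdx2-/-;Apc+/- against Cdx2-/- cecum it ran from -4.95 to 0.39 for Fgf15, -0.99 to 0.44 for Slc10a2, -0.82 to 0.67 for Slc51a and -1.35 to 0.17 for Slc51b. For Cdx2-/-;Apc+/- against WT cecum it ran from -1.96 to 2.88 for Fgf15 and -2.84 to 1.79 for Nr0b2. In the stomach it ran from -2.28 to 0.22 for Fabp6, and in the Apc+/- ileum against WT cecum from -2.91 to 1.54 for Nr0b2 and -1.05 to 0.19 for Slc10a2. Between the Cdx2-/-;Apc+/- tissues it ran from -0.55 to 0.85 for Nr1h4 and -0.19 to 5.03 for Slc51b. The difference of effects ran from -6.09 to 0.83 for Fgf15, -2.09 to 2.35 for Nr0b2 and -0.67 to 4.01 for Slc51b.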
